A study of Mus musculus with 18 samples.

Results

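The mRNAs of 9 glycolytic enzymes (Gapdh, Aldoa, Pkm, Eno1, Ldha, Pgk1, Tpi1, Pgam1 and Gpi1) were examined for 5-methylcytosine (m5C), a modified base of RNA. The 9 genes were taken by name, and their sites are the called cytosines that lie on the gene's strand in an exon of a curated RefSeq transcript (mm10). Over 9 libraries, 80 of the 17998 distinct mRNA sites lay in these genes, and 6 of the 9 genes carried at least 1 site, against 2601 of all 21000 annotated protein-coding genes (12.4%). Eno1, Pgk1 and Pgam1 carried none in any library.

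Glycolysis splits glucose into pyruvate and yields ATP without oxygen. Gpi1 converts glucose 6-phosphate into fructose 6-phosphate, Aldoa (aldolase A) cleaves fructose 1,6-bisphosphate, and Tpi1 interconverts the resulting triose phosphates. Gapdh, Pgk1, Pgam1, Eno1 and Pkm (pyruvate kinase) then lead in turn to pyruvate, which Ldha reduces to lactate, so that NAD+ is regained when oxygen is short. Many of these genes are targets of HIF-1, and their mRNAs are abundant in most cells. Bisulfite turns unmethylated cytosine into uracil and leaves m5C as cytosine, so a site is read as a cytosine that stays a cytosine. Cytosines that resist bisulfite for other reasons are read in the same way.

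The labels describe primary cortical neurons of C57BL/6 mice at embryonic day 18. The cells were untreated (control) or were deprived of oxygen and glucose for 1.5 h or 3 h and reoxygenated for 24 h (OGD/R 1.5 h and OGD/R 3 h), with 3 bisulfite libraries in each group. The labels give the gas as 94% N2, 21% O2 and 5% CO2, which adds up to 120%. The files list sites with a score and give neither coverage nor methylation level, so the depth is unknown and numbers of sites are given instead. The score is a whole number from 0 to 1000 in these files, and the level and the coverage of a site cannot be read from it. In the part of the study's site table that gives coverage, the 3 libraries of control, and likewise of OGD/R 3 h, differed by less than the sampling noise. Each group was for this reason treated as 1 sample, OGD/R 1.5 h included, for which no coverage was held. Differences between groups are thus without independent replicates, no p-value is given, and the SD describes the spread between libraries.

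The intestinal marker genes went against the label of the cells. None of 20 neuronal marker genes, Tubb3, Map2, Snap25 and Rbfox3 among them, carried a site in any library. Over all annotated genes, whether expressed in these samples or not, 12.4% carried a site. That share is not matched for expression, so how much a list of 20 without any tells cannot be judged from it. By contrast, 21 of 22 marker genes of intestinal epithelium carried sites, and their summed number was 120 to 132 per library in control, 74 to 86 in OGD/R 1.5 h and 234 to 258 in OGD/R 3 h. Of the 8 astrocyte markers, 1 carried a site, which is near the share of all annotated genes. Markers of red blood cells (2 of the 7 annotated ones) summed to 31 sites in each OGD/R 3 h library and to 0 elsewhere, and those of neutrophils and bone marrow (4 of 10) to 32 in each OGD/R 3 h library, 1 to 2 in those of control and 0 after 1.5 h. The part of these cell types in the values below was not tested. In RNA of mixed cells, fewer cells of a type and less RNA per cell cannot be told apart, and a site can be called only where the mRNA is covered.

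The cytosines that carry most of the findings are shown first, since many of them stand side by side. For 4 of the 5 clusters of sites, leaving out the smaller one in exon 7 of Aldoa, the 30 bases of the mRNA (5′ to 3′, mm10) with most called cytosines are printed, and capitals mark each cytosine that was called in at least 1 of the 9 libraries. The first is in exon 3 of Aldoa (chr7:126797454-126797483, minus strand), where 10 of 11 cytosines were called, and the next in exon 5 of Aldoa (chr7:126796681-126796710, minus strand), where 8 of 8 were. In Tpi1 (exon 1, chr6:124814075-124814104, minus strand) 4 of 5 and in Ldha (exon 4, chr7:46850209-46850238, plus strand) 3 of 10 were called.
Aldoa exon 3: CgCcagCtgCtgCtgaCtgCagaCgaCCgt
Aldoa exon 5: gagCCgaCtttgCCaagtggCgCtgtgtgC
Tpi1 exon 1: ttCttCgttgggggcaaCtggaagatgaaC
Ldha exon 4: cattatcacCgcgggggCCcgtcagcaaga

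The enzyme mRNAs held more sites after both durations of deprivation than in control. Control replicates 1, 2 and 3 held 8, 10 and 7 sites, OGD/R 1.5 h held 18, 19 and 21, and OGD/R 3 h held 34, 23 and 22. All 6 libraries of the deprived cells lay above all 3 control libraries, while OGD/R 3 h replicate 1 stood apart from the other two of its group. The means were 8.33 ± 1.53, 19.3 ± 1.53 and 26.3 ± 6.66 sites (SD, 3 libraries). The log2 ratio to control was 1.21 ± 0.25 for OGD/R 1.5 h and 1.66 ± 0.37 for OGD/R 3 h (SD over the 9 pairs of libraries), and the latter was 1.43 without OGD/R 3 h replicate 1. For OGD/R 1.5 h the ratio was 0.39 when only scores of at least 10 were kept (4.33 sites per library in control and 5.67 in OGD/R 1.5 h), so the additional sites of that group were mostly of low score.

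**Figure D1:**
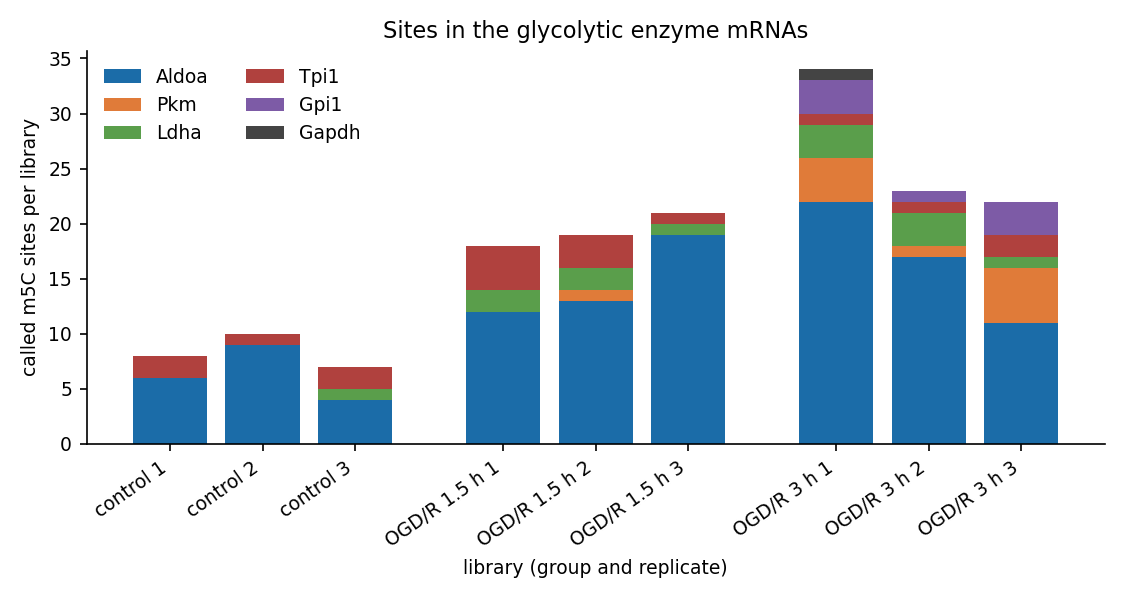
Number of called m5C sites in the listed mRNAs (y axis) for each of the 9 libraries (x axis), stacked by gene. Control libraries hold 7 to 10 sites, OGD/R 1.5 h 18 to 21 and OGD/R 3 h 22 to 34; Aldoa makes up 50% to 90.5% of each bar, and Gpi1 appears only in the OGD/R 3 h libraries.

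The number of mRNA sites of all genes was 3792 to 4137 per library in control, 3501 to 3738 in OGD/R 1.5 h and 4703 to 5229 in OGD/R 3 h. The enzyme mRNAs took 0.211 ± 0.0289% of them in control, 0.537 ± 0.0239% in OGD/R 1.5 h and 0.536 ± 0.0999% in OGD/R 3 h (SD, 3 libraries), so the share was higher although OGD/R 1.5 h had fewer mRNA sites than control in every library. The difference from control was 0.327 ± 0.0324 percentage points at 1.5 h and 0.325 ± 0.0900 points at 3 h (SD over library pairs). Without Aldoa these differences were 0.0798 and 0.145 points, and with sites called in all 3 libraries of their group 0.103 and 0.142 points. With scores of at least 10 the difference at 1.5 h was 0.123 points. The number of enzyme genes with a site was 2 or 3 per control library, 3 or 4 per OGD/R 1.5 h library and 5 or 6 per OGD/R 3 h library. Over all genes, counted in the union of a group's libraries and not per library, the direction was opposite. There, 1813 genes carried a site in control, 1746 after 1.5 h and 1444 after 3 h of deprivation.

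Gene by gene, the groups did not overlap for 3 of the 6 enzymes with a site in either group, since every OGD/R 3 h library held more sites than every control library in Aldoa, Pkm and Gpi1. Among all 2258 genes with a site in these 6 libraries, 18.5% were higher in that sense and 18.8% were lower, and none of the enzymes was lower. Between OGD/R 1.5 h and control, 1 of 4 enzymes was higher (Aldoa), against 8.57% of 2322 genes, and none was lower, against 15.2%. Between OGD/R 3 h and OGD/R 1.5 h, 1 of 6 was higher (Gpi1), against 19.8% of 2180 genes, and none was lower, against 13.5%. Pkm, Gpi1 and Gapdh had no site in control, and Gpi1 and Gapdh had none in OGD/R 1.5 h. In the comparisons with those groups they entered only through the other group and could not be lower. This holds for any gene with sites in 1 group of a pair only. Nor could a gene be lower than a group in which any library lacked a site, as for Ldha against control and Pkm against OGD/R 1.5 h. With so few genes, these counts describe the genes named and no more. The comparisons with control share the control libraries.

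Aldoa (chr7:126795234-126799254, minus strand, 9 exons) carried 50 of the 80 sites. It had 6, 9 and 4 sites in the control replicates, 12, 13 and 19 in OGD/R 1.5 h and 22, 17 and 11 in OGD/R 3 h. Every library of both deprived groups lay above every control library, and the deprived groups overlapped each other. This rested largely on calls of low score. Aldoa calls with a score of at least 10 numbered 7 in control, 6 in OGD/R 1.5 h and 19 in OGD/R 3 h. At that cut there was no rise in OGD/R 1.5 h, and the libraries of OGD/R 3 h overlapped those of control. Per 1000 cytosines of the mRNA, Aldoa had 109 distinct sites, against 24.7 in Tpi1, 19.6 in Ldha, 13.2 in Pkm, 5.03 in Gpi1 and 2.32 in Gapdh. In the union of a group's libraries, Aldoa had 15 sites in control, 33 in OGD/R 1.5 h and 32 in OGD/R 3 h, which ranked it 62nd, 20th and 39th by number of sites among the genes with a site.

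The Aldoa sites were packed into exons 3, 4 and 5, with 19, 7 and 17 distinct sites, while exons 1, 2 and 6 had none. A first stretch of 79 nt in exon 3, which starts 155 nt after the A of the start codon, held 19 sites at its 22 cytosines (86.4%). A further stretch of 121 nt from exon 4 into exon 5 held 24 sites at 28 cytosines (85.7%) and ran across the exon junction, so that it is split by an intron in the genome. Exon 7 held 4 sites within 28 nt, all in OGD/R 1.5 h, at 4 of 9 cytosines. Each of them was called in 1 library only, with scores of 5, 3, 5 and 3. The runs were defined after the positions had been seen, as at least 3 sites with gaps of at most 50 nt. Only 21 of the 2559 genes with a site on their reference transcript (0.821%) had as many as 19 distinct sites in some 80 nt of the mRNA. The count of 19 is that of the Aldoa stretch itself, and the 80 nt are close to its length. The genes were not matched by number of sites, so this share is a description.

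The exon 3 stretch was nearly free of calls in control, with 0, 2 and 0 sites, and held 5, 1 and 8 sites in OGD/R 1.5 h and 7, 8 and 5 in OGD/R 3 h. Control replicate 2 exceeded OGD/R 1.5 h replicate 2, so these groups overlapped, and all control libraries lay below all OGD/R 3 h libraries. The bounds of this stretch came from the pooled calls of all 9 libraries. Of its distinct sites, 2 were called in control, 10 in OGD/R 1.5 h and 13 in OGD/R 3 h. The difference between groups in this stretch is therefore a description and not a test. In the stretch of exons 4 and 5, control had 6, 7 and 3 sites, OGD/R 1.5 h 6, 10 and 10, and OGD/R 3 h 14, 8 and 5, and the 3 groups overlapped. The sites called on the 3′ UTR of Aldoa, 2 in number, were found in OGD/R 3 h libraries only, with scores of 28, 39 and 28.

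**Figure D2:**
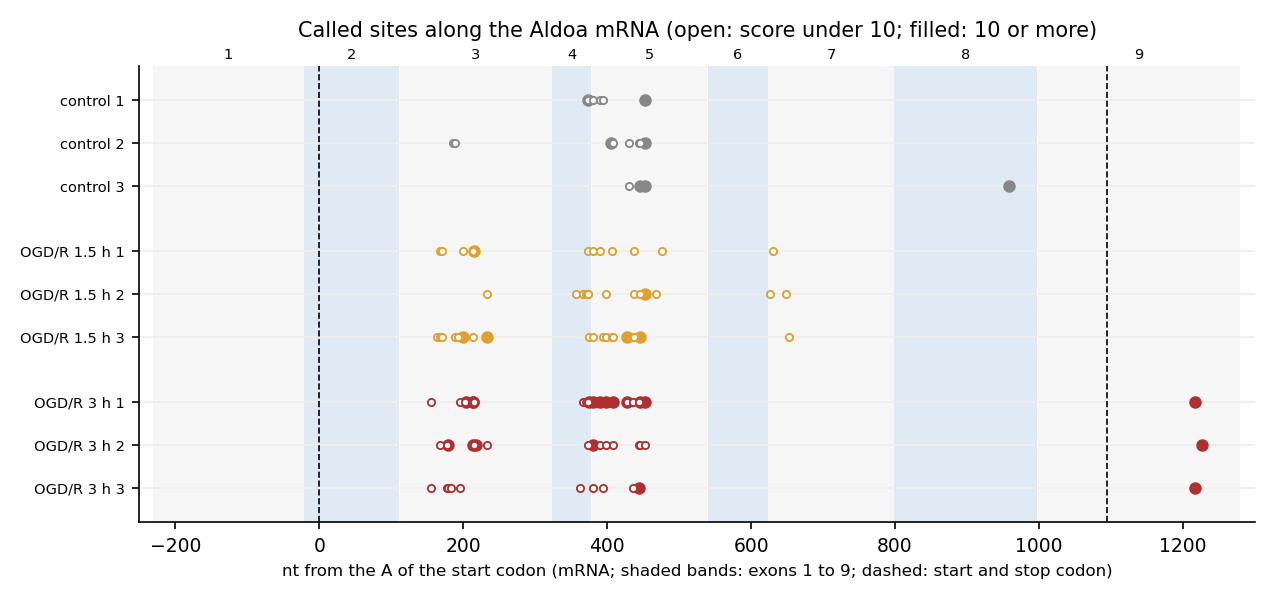
Each row is a library and each circle a called site of the Aldoa mRNA, placed by its distance in nt from the A of the start codon (x axis); open circles have scores under 10 and filled circles of at least 10, and numbered bands are exons. Calls gather in exons 3, 4 and 5 in the deprived groups and mostly in exon 5 in control. Exon 3 holds calls in 1 of 3 control libraries and in each library of the deprived cells. Exon 7 holds calls in OGD/R 1.5 h alone, each site in 1 library and with a score under 10.

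Most single Aldoa cytosines were called in few libraries. No Aldoa site was called in more than 6 of the 9 libraries, and 19 of 50 were called in 1 library only. The sites that reached 6 libraries and all 3 groups were 3 cytosines of exon 5, shown here in capitals within the 21 bases around each.
Aldoa chr7:126796753: tacccaggggCtggatgggct
Aldoa chr7:126796688: ccaagtggcgCtgtgtgctaa
Aldoa chr7:126796681: gcgctgtgtgCtaaagattgg
The cytosine at chr7:126796681 was called in all control replicates, with scores of 11, 79 and 28, in OGD/R 1.5 h replicate 2 with 28, and in OGD/R 3 h replicates 1 and 2 with 10 and 3. The one at chr7:126796753 was called in control replicate 1 with a score of 3, in OGD/R 1.5 h replicates 1 and 3 with 1 each, and in all OGD/R 3 h replicates with 22, 21 and 4. These cytosines of the same exon thus had their full set of libraries in different groups. The cytosine at chr7:126796697 was called in all 3 OGD/R 1.5 h libraries, with scores of 5, 6 and 9, and in no other library. The highest mean score of Aldoa belonged to chr7:126795652 in exon 8, which was called in control replicate 3 alone, with a score of 224.

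Aldoa calls had low scores, with a median of 4 in each of the 3 groups. Of its 113 calls, 28.3% reached a score of 10, against 81.6% of the 49 calls in the other enzymes, whose median was 54. The range of the Aldoa scores was 0 to 224. The median score of all mRNA sites was 7 to 12 in the 9 libraries.

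**Figure D3:**
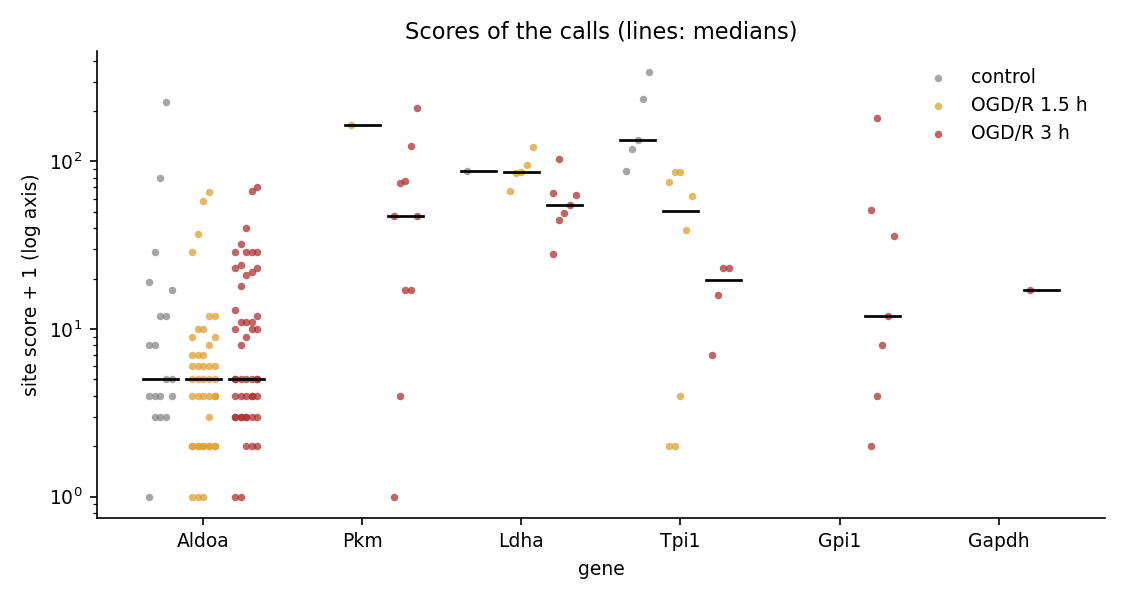
Score of every call plus 1 on a log axis (y axis) by gene (x axis), coloured by group; horizontal lines are medians. Aldoa has a median score of 4 in each group with few calls above 100, while the Tpi1 medians are 133 in control, 49.5 in OGD/R 1.5 h and 18.5 in OGD/R 3 h.

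Tpi1 (chr6:124810586-124814158, minus strand, 7 exons) had 2, 1 and 2 sites in the control replicates, 4, 3 and 1 in OGD/R 1.5 h and 1, 1 and 2 in OGD/R 3 h, and its numbers overlapped between all groups. The positions differed by group. The control sites lay in exons 3 and 4, from 279 to 438 nt after the A of the start codon, whereas 6 sites of the deprived groups lay within 53 nt of exon 1, from 20 to 72 nt after that A, where control had none. Of these 6, OGD/R 1.5 h held 4 and OGD/R 3 h held 2, and none was shared between them. The only Tpi1 site found in both control and a deprived group was chr6:124812422, with scores of 87 in control replicate 1 and 61 in OGD/R 1.5 h replicate 1.

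Among the Tpi1 sites, chr6:124812665 had the highest mean score of any site in the 9 genes and was called in control replicates 2 and 3 only, with 341 and 235. The cytosine at chr6:124814075 was called in all OGD/R 1.5 h replicates and nowhere else, with scores of 38, 1 and 3. The one at chr6:124814102 was called in all OGD/R 3 h replicates and nowhere else, with 15, 22 and 22.
Tpi1 chr6:124812665 (control): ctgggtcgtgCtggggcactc
Tpi1 chr6:124814075 (OGD/R 1.5 h): ggaagatgaaCgggaggaaga
Tpi1 chr6:124814102 (OGD/R 3 h): ccaggaagttCttcgttgggg

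Ldha (chr7:46845804-46855627, plus strand, 8 exons) had 0, 0 and 1 sites in the control replicates, 2, 2 and 1 in OGD/R 1.5 h and 3, 3 and 1 in OGD/R 3 h, and each group overlapped with the others. All 8 distinct sites belonged to 1 group each. In exon 4, neighbouring cytosines parted the deprived groups: chr7:46850226 was called in OGD/R 1.5 h replicates 1 and 3, with scores of 121 and 86, and chr7:46850227 in all OGD/R 3 h replicates, with 64, 54 and 103.
Ldha chr7:46850226 (OGD/R 1.5 h): accgcgggggCccgtcagcaa
Ldha chr7:46850227 (OGD/R 3 h): ccgcgggggcCcgtcagcaag
The control site was chr7:46850977 in exon 5, with a score of 87 in replicate 3, and just downstream of it the cytosine chr7:46850983 was called in OGD/R 3 h replicates 1 and 2, with 62 and 48. The scores of Ldha ranged from 27 to 121, so none of its 13 calls fell under 10. Its 2 sites in the 3′ UTR were each called in 1 OGD/R 3 h library.

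Pkm (chr9:59656576-59679372, plus strand, 11 exons in the reference transcript) had no site in the control replicates, 0, 1 and 0 in OGD/R 1.5 h and 4, 1 and 5 in OGD/R 3 h. The OGD/R 3 h libraries lay above control but overlapped with OGD/R 1.5 h, since replicates of both had 1 site. The site with the highest mean score was chr9:59670555 in exon 6, called in OGD/R 3 h replicates 1 and 3 with 208 and 75. The cytosine chr9:59668920 in exon 5 was called in OGD/R 1.5 h replicate 2 with 163 and in OGD/R 3 h replicates 1 and 3 with 73 and 46.
Pkm chr9:59670555: ctgtggatctCcccgctgtgt
Pkm chr9:59668920: ggcagcggcaCcgctgaggtg
Of the 8 Pkm sites, 6 were called in 1 library only. Pkm is spliced to M1 or M2 pyruvate kinase through mutually exclusive exons, and neither of these, 167 nt each, carried a site.

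Gpi1 (chr7:34201327-34230336, minus strand, 18 exons) had sites in OGD/R 3 h only, with 3, 1 and 3 in its replicates and none in the other 6 libraries. The cytosine chr7:34230129 in exon 1, 84 nt after the A of the start codon, was called in all 3 replicates with low scores of 3, 7 and 1. The site with the highest mean score, chr7:34204102 in exon 15, was called in replicates 1 and 3 with 180 and 50.
Gpi1 chr7:34230129: gctgcgcgaaCtttttgaggc
Gpi1 chr7:34204102: gggaagttgcCtgaagaggcc
Gapdh (chr6:125161852-125165773, minus strand, 7 exons), widely used as a reference gene, had a single call in all 9 libraries, at chr6:125165310, which is 17 nt before the start codon, with a score of 16 in OGD/R 3 h replicate 1.
Gapdh chr6:125165310: cagtgccagcCtcgtcccgta

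**Figure D4:**
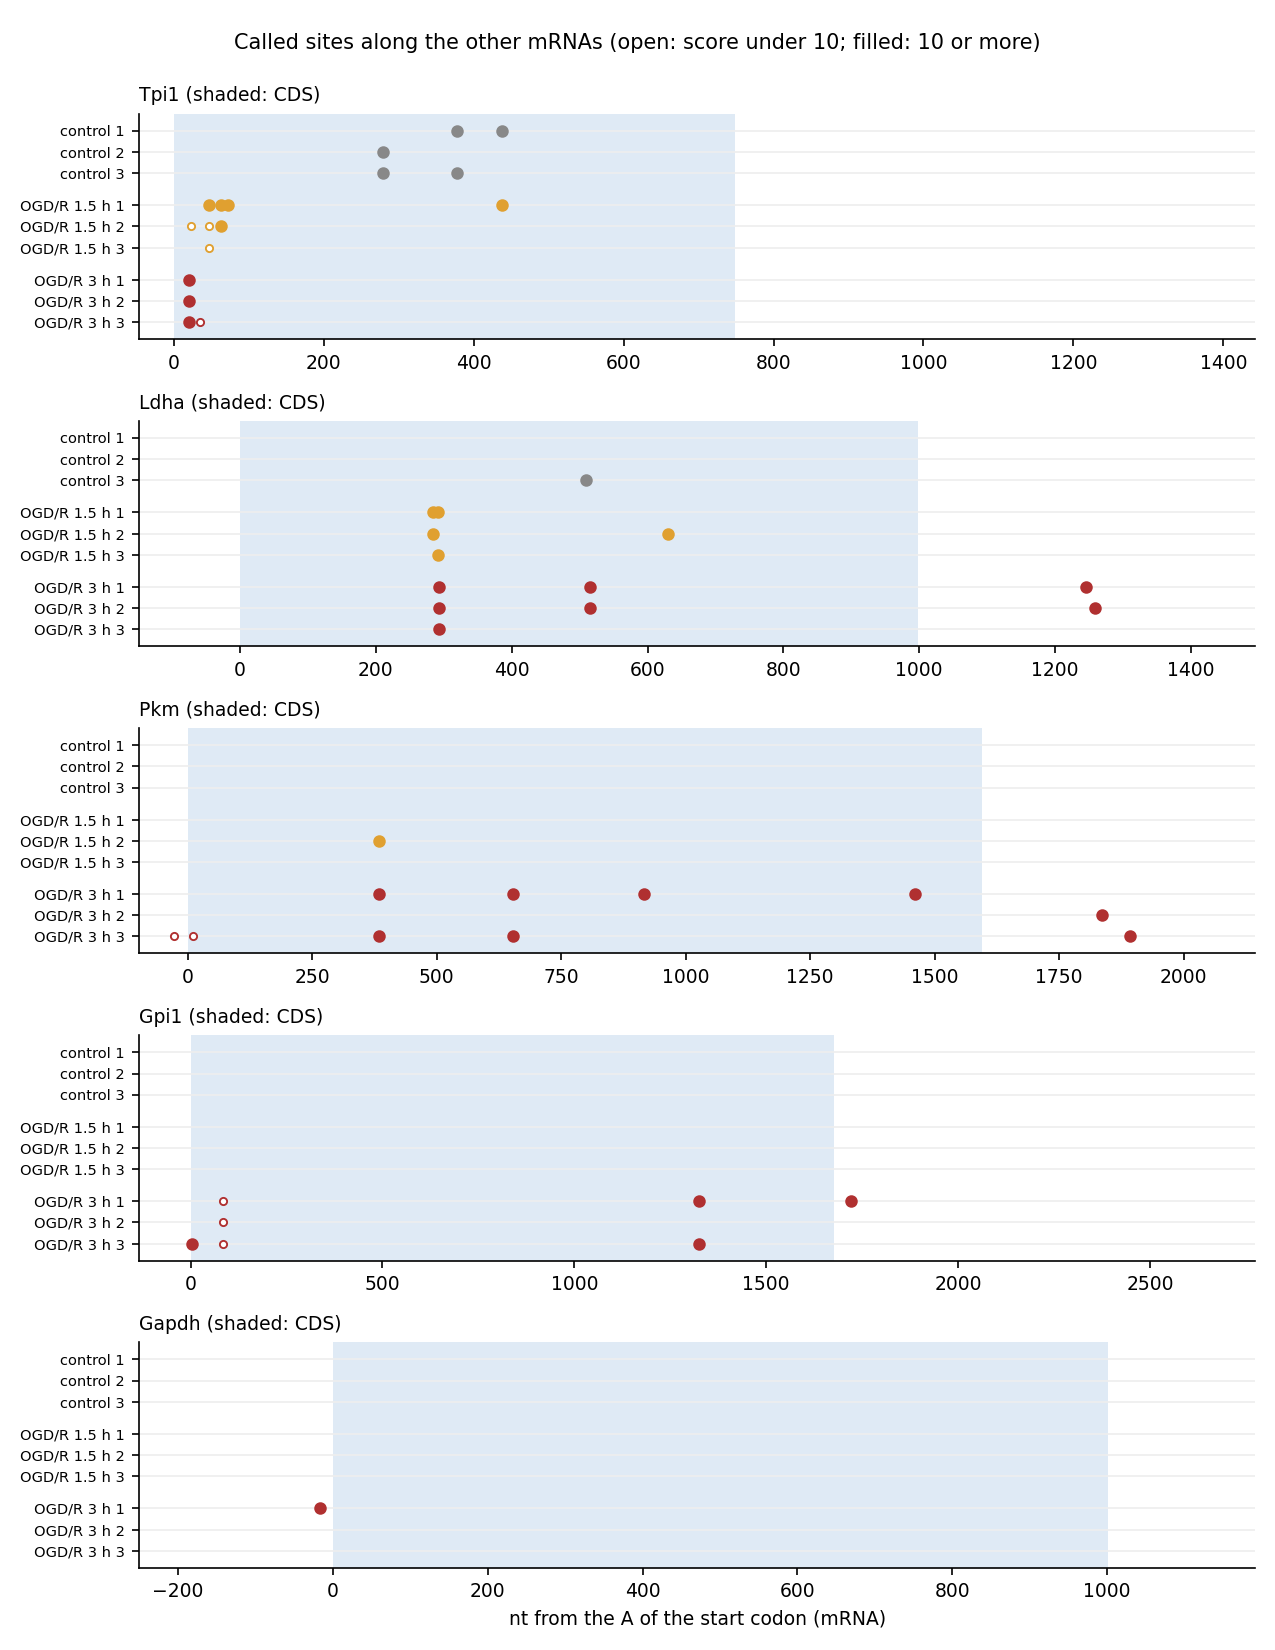
Each panel is an mRNA, each row a library and each circle a called site by its distance in nt from the A of the start codon (x axis); open circles have scores under 10 and filled circles of at least 10. Tpi1 sites lie 279 to 438 nt after that A in control and mostly at 20 to 72 nt in the deprived groups, the Ldha sites at 292 and 293 nt belong to different deprived groups, and Pkm, Gpi1 and Gapdh have no site in control.

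The enzyme mRNAs without a site lay within the range of lengths of those with sites, and Pgk1 had the lowest GC content of the 9. Eno1 (chr4:150237197-150248873), Pgk1 (chrX:106187100-106203699) and Pgam1 (chr19:41911871-41918665) have mRNAs of 1776, 1825 and 1832 nt with 498, 408 and 465 cytosines and a GC content of 55.5%, 49.7% and 53.1%. Aldoa, with most sites, has 1511 nt, 459 cytosines and 57.3% GC, and Gapdh, with 1 site, has 1422 nt, 432 cytosines and 56.6% GC. Copies of these mRNAs elsewhere in the genome were counted because reads of near-identical loci can be hard to place, and how the authors treated such reads is not given in the sources used here. Loci that cover at least 50% of the mRNA numbered 304 for Gapdh, 28 for Ldha, 12 each for Aldoa and Eno1, 9 for Pkm, 7 each for Tpi1 and Pgam1, 3 for Pgk1 and 1 for Gpi1. At an identity of at least 95% these were 45 for Gapdh, 3 each for Eno1 and Pgam1, 2 for Pgk1, 1 each for Pkm, Tpi1 and Gpi1, and 0 for Aldoa and Ldha. None of the Aldoa and Ldha sites lay in a segment with such a near-identical copy, against all 8 of Pkm, all 4 of Gpi1, the Gapdh site and 1 of 9 in Tpi1. All 50 Aldoa and all 8 Ldha sites did have less identical copies, at up to 93.2% and 94.4% identity, just under that limit. The files listed 1 site on the copies of Aldoa, 3 on those of Ldha and 0 on those of the other genes.

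Over the 80 sites, 35 were called in 1 library only, 56 belonged to 1 group, 16 to 2 groups and 8 to all 3 groups, and these 8 were all in Aldoa. Sites found in 1 group only numbered 7 for control, 19 for OGD/R 1.5 h and 30 for OGD/R 3 h. Sites called in all 3 libraries of their group numbered 1 in control, 2 in OGD/R 1.5 h and 5 in OGD/R 3 h. No site of these genes was called in all 6 libraries of any pair of groups, whereas 250 mRNA sites were for control and OGD/R 3 h, 294 for control and OGD/R 1.5 h and 200 for the deprived groups. Scores at shared sites could therefore not be compared between groups for these mRNAs.

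Libraries of a group shared 5.88% to 32.6% of their combined sites in the enzyme mRNAs (median 18.4% over 9 pairs). For all mRNA sites this was 29.7% to 45.3% (median 40.6%). The ranges overlapped, but in each pair the share was lower for the enzyme mRNAs. Libraries of different groups shared 0% to 18.9% (median 8.33% over 27 pairs), and all mRNA sites 6.51% to 10.8%. Without Aldoa the medians were 28.6% within groups and 0% between groups. The sites of Tpi1, Ldha, Pkm and Gpi1 were thus largely those of 1 group, while the 8 sites found in all 3 groups lay in exons 4 and 5 of Aldoa. A pair of libraries of a group held 13 to 44 sites together, and only 3 to 17 without Aldoa, so that 1 shared site moves these shares widely.

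In the position on the mRNA, Aldoa and the other enzymes differed. Of the 50 Aldoa sites, 48 lay in the CDS outside the 100 nt on either side of the start and stop codons, and none in the start codon region. Of the 30 sites of the other enzymes, 14 lay in the CDS and 11 in the start codon region, which holds 11.4% of their cytosines. Of these 11, 6 were the exon 1 cluster of Tpi1. The rest lay in Pkm, Gpi1 and Gapdh, and Ldha had none there. Their density was 37.2 distinct sites per 1000 cytosines in the start codon region, 10.6 in the CDS, 6.61 in the 3′ UTR and 3.11 in the stop codon region. All start codon region sites came from the deprived groups, 4 from OGD/R 1.5 h and 7 from OGD/R 3 h. Pkm, Gpi1 and Gapdh had no site in control anywhere, so theirs could come from no other group. Over all mRNA sites the CDS held 55.2%, the start codon region 24.4%, the 5′ UTR 7.24%, the 3′ UTR 7.06% and the stop codon region 6.05%, and the enzyme mRNAs had no site in the rest of the 5′ UTR.

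**Figure D5:**
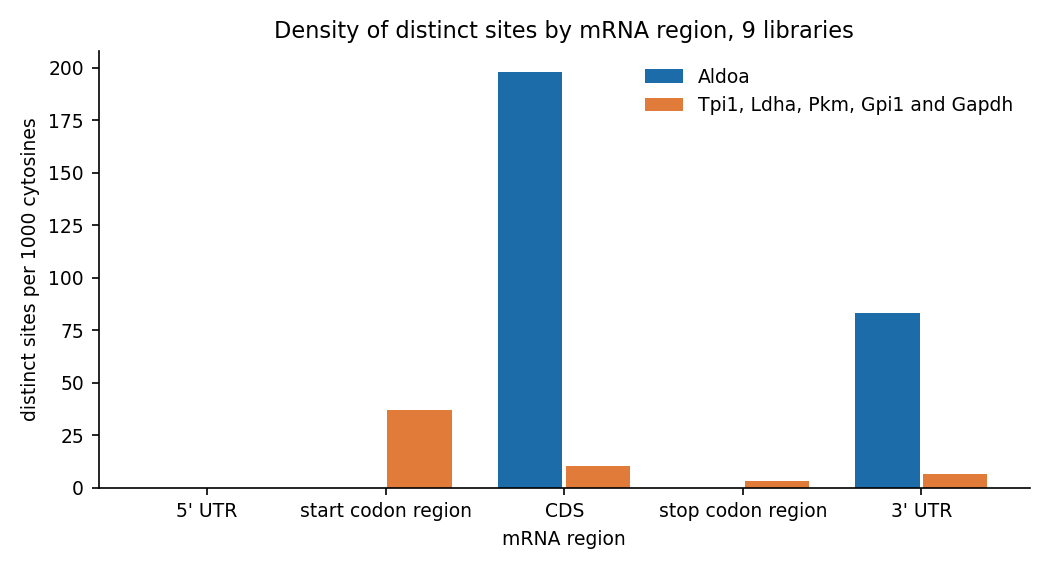
Distinct sites of the 9 libraries per 1000 cytosines of the region (y axis) by mRNA region (x axis), for Aldoa and for the other 5 enzymes with a site. Aldoa reaches 198 in the CDS and 0 in the start codon region, and the other enzymes are densest in the start codon region, at 37.2. Of the 11 sites behind that bar, 6 are the exon 1 cluster of Tpi1. The 3′ UTR bar of Aldoa rests on 2 sites at 24 cytosines.

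By library, the share of the enzyme sites in the CDS class, which leaves out the 100 nt on either side of the start and stop codons, was 100% in each of the 3 libraries of control, 83.3%, 84.2% and 95.2% in OGD/R 1.5 h and 82.4%, 78.3% and 63.6% in OGD/R 3 h. Control lay above both deprived groups, and the difference of OGD/R 3 h from control was -25.2 ± 8.52 percentage points (SD over library pairs). This difference was -57.3 points without Aldoa, -48.5 with no other site within 10 nt, -40.0 with sites called in all 3 libraries of their group and -16.1 with sites called in at least 2 of them. Without Aldoa the control libraries held only 2, 1 and 3 sites, and with no other site within 10 nt only 3, 2 and 5. The sites outside the CDS class were those of Tpi1, Pkm, Gpi1 and Gapdh near the start codon, most of which still lie in coding codons, 1 of Gpi1 near the stop codon, and those of Aldoa, Pkm and Ldha in the 3′ UTR.

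The sequence contexts were close to those of all mRNA sites. CG made up 21.3% of the 80 sites, CHG 37.5% and CHH 41.3% (H is A, C or U), against 22.4%, 38.0% and 39.6% of all mRNA sites and 11.1%, 24.3% and 64.6% of all cytosines of the 6 mRNAs. Per 1000 cytosines, this was 50.2 sites in CG, 40.3 in CHG and 16.7 in CHH. Of the sites, 28.8% had no guanine in the next 3 bases, against 47.9% of the cytosines. The first position of a codon held 50.6 sites per 1000 cytosines, the second 29.96 and the third 34.4. The CHH share by library was 50%, 40.0% and 42.9% in the control replicates, 50%, 52.6% and 33.3% in OGD/R 1.5 h and 41.2%, 43.5% and 27.3% in OGD/R 3 h, and these ranges overlapped.

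Bisulfite acts on unpaired cytosines, and the pairing of the cytosines was predicted from the mRNA sequence alone by the structure of lowest free energy. In Aldoa, 64.0% of the sites and 61.9% of the other cytosines were paired. In Tpi1 these shares were 88.9% of 9 sites and 69.4%, in Ldha 75.0% of 8 sites and 67.5%, in Pkm 75.0% of 8 sites and 69.7% and in Gpi1 75.0% of 4 sites and 60.6%. Outside Aldoa these shares rest on 4 to 9 sites per gene.

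Sites of the same library often lay close together. Within 10 nt of another site lay 62.5%, 80% and 28.6% of the enzyme sites in the control replicates, 55.6%, 36.8% and 66.7% in OGD/R 1.5 h and 58.8%, 60.9% and 22.7% in OGD/R 3 h, against 38.96% to 51.7% of all mRNA sites. The groups overlapped in this share. All gene bodies of the 9 enzymes together held no site on the opposite strand and 1 site on the sense strand outside exons, in Tpi1.

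Of 21 further glycolytic genes, among them hexokinases, phosphofructokinases and isoenzymes of the listed ones, 5 carried a site, beside 12.4% of all annotated genes. Pklr, the pyruvate kinase of liver and red blood cells, had sites in OGD/R 3 h alone, with 2, 1 and 1. Hkdc1, Pfkp and Bpgm had at most 2 sites per library.

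Of 26 genes of linked steps, from glucose uptake to pyruvate dehydrogenase and the hypoxia response, 5 carried a site, again beside 12.4% of all annotated genes. Their summed number was 15.3 ± 1.53 sites per control library, 9.33 ± 3.51 per OGD/R 1.5 h library and 15 ± 1 per OGD/R 3 h library (SD, 3 libraries). Slc16a1, which exports lactate, had none in control, 1, 1 and 2 sites in OGD/R 1.5 h and 1, 2 and 2 in OGD/R 3 h. Slc5a1, the sodium-coupled glucose transporter, had 15, 11 and 12 sites in the control replicates, 4, 4 and 8 in OGD/R 1.5 h and 13, 12 and 12 in OGD/R 3 h, so OGD/R 1.5 h lay below both others. Over all genes, 15.2% were in the same way lower in OGD/R 1.5 h than in control. A further 19.8% were higher in OGD/R 3 h than in OGD/R 1.5 h, among the genes of that comparison. Slc5a1 is also on the list of intestinal markers. Pfkfb4, which sets the level of fructose 2,6-bisphosphate, had 2, 4 and 2 sites in the control replicates, 4, 1 and 3 in OGD/R 1.5 h and 1, 0 and 0 in OGD/R 3 h. Slc2a2 and Pdha1 had 1 site each, in OGD/R 3 h.

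Among 490 genes with at least 10 distinct sites, the numbers of sites per library most like the summed number of the enzymes were those of Hadh (r = 0.936), Ctnna1 (r = 0.927) and Tmem259 (r = 0.915) over the 9 libraries. Hadh had 1, 1 and 0 sites in the control replicates, 2, 4 and 3 in OGD/R 1.5 h and 7, 6 and 5 in OGD/R 3 h. The 9 points share the number of sites called in a library, with which the summed number of the enzymes had r = 0.651, and fall into 3 groups.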

How the data were processed

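RNA labelled as that of mouse cortical neurons was measured in 9 bisulfite libraries, and 9 mock libraries without files were not analysed here. Per the labels and the paper, the authors depleted rRNA, treated RNA with bisulfite, used Cutadapt (1.9.3) for trimming, meRanGh for alignment to mm10 and meRanCall for the calls, with a minimum level of 0.1 and a minimum coverage of 10. The deposited score of each site was used here without normalization for depth, and how the mock libraries entered the calls is not given in the sources used here.

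Sites were assigned to exons of curated RefSeq transcripts on their strand (GRCm38.p6, Python 3.11.15, pysam 0.24.0, samtools 1.23.1). Regions come from the transcript with the oldest accession. Groups are means ± SD over 3 libraries, and no statistical test across genes was run. Groups were called not overlapping where every library of one lay above every library of the other, over genes with a site in the 6 libraries. Copies were sought with BLAST+ 2.17.0 (hits of at least 100 nt), structures with ViennaRNA 2.7.2, and figures drawn with matplotlib 3.10.9. The coverage of libraries was checked by chi-square against simulated independent libraries (numpy 2.4.6). The named sites are those with the highest mean score of each gene, with 0 where not called, and those called in all 3 libraries of 1 group and no other. The 3 genes most like the enzymes have the highest Pearson r. The members, lists and rules were chosen with earlier results of these data known, and runs, copies, pairing, the split into Aldoa and other enzymes, and further sites named to compare neighbours or recurrence were chosen after the positions had been seen. The values of 1 listed gene of the pathway are not reported here.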

Additional observations from a re-analysis of the deposited data

How the results depend on the processing

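The 8 differences from control were recomputed under 104 alternatives, of which 83 moved the value by less than 1 SD over library pairs. No paired analysis was possible because no test was run and the libraries of a group were counted as 1 sample. For the log2 ratio of sites per library, OGD/R 3 h over control (1.66), the value was 2.21 with sites called in at least 2 libraries of their group, 2.32 with sites called in all 3, 2.27 without Aldoa and 1.43 to 1.81 with 1 library left out; OGD/R 1.5 h over control (1.21) was 0.39 with scores of at least 10 and 1.10 to 1.37 with 1 library left out. The share of mRNA sites, OGD/R 3 h minus control (0.325 percentage points), was 0.142 with sites called in all 3 libraries, 0.145 without Aldoa and 0.267 to 0.359 with 1 library left out. For OGD/R 1.5 h (0.327 points) it was 0.103 with sites in all 3 libraries, 0.123 with scores of at least 10, 0.254 with no other site within 10 nt, 0.0798 without Aldoa and 0.313 to 0.342 with 1 library left out. The log2 ratio of median scores, OGD/R 3 h over control (-1.71 ± 2.19), rests on control replicate 3, without which it was 0.70, and ranged from -2.41 to 0.70 with 1 library left out. At 1.5 h (-2.99 ± 1.97) it was -0.16 with scores of at least 10 and -3.50 to -0.58 with 1 library left out, the latter without control replicate 3, so no change of score is claimed. The CDS share, OGD/R 3 h minus control (-25.2 points), was -16.1 with sites in at least 2 libraries, -40.0 with sites in all 3, -35.4 with scores of at least 10, -48.5 with no other site within 10 nt, -57.3 without Aldoa and -29.1 to -19.7 with 1 library left out. The CHH share (-6.98 ± 8.81 points) was -60.0 with sites in all 3 libraries, -21.2 with scores of at least 10, 26 without Aldoa and -10.1 to -1.96 with 1 library left out. The cause of these shifts was not tested. The GENCODE annotation, the members without Gapdh, a codon region of 50 nt, the transcript with the longest CDS and the mean log2 score moved no value by 1 SD. Leaving out Aldoa and the longest CDS were chosen after the data had been seen. Sites called in all 3 libraries number 1 in control, and without Aldoa the control libraries held 2, 1 and 3 sites. These small numbers limit every value that rests on them. Read depth, on which the calling of sites depends, is unknown.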
